A study of Mus musculus with 16 samples.

Results

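The response of the mouse macrophage line RAW264.7 to 24 h of lipopolysaccharide (LPS) was read from 8 of the 16 arrays of the series: the 4 arrays titled as LPS and the 4 titled as control. The control cells received the solvent ethanol at 0.1% by volume for 24 h. The LPS cells received LPS, a component of the outer membrane of Gram-negative bacteria, at 1 µg/ml for 24 h. The treatment protocol says that LPS was given with vehicle, while the treatment label names ethanol for the control arrays only. The other 8 arrays carried docosahexaenoyl serotonin (DHA5HT), a fatty acid conjugate, at 1 µM, alone or with LPS. They entered the estimate of the spread, the choice of probe sets, the background level and other summaries over all 16 arrays. They did not enter the group means compared. The cells are 1 transformed line grown in culture, and nothing in the labels ties the 4 arrays of a group to 4 different cultures. Each p-value below therefore measures only the spread between these samples. The account covers all 18820 genes measured, with weight on genes that fell and on genes other than cytokines, chemokines and interferon-stimulated genes.

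LPS is handed by CD14 to a complex of the receptor TLR4 and its partner MD-2, the product of Ly96, which signals through the adaptors MyD88 and TRIF to NF-kB, the MAP kinases and interferon regulatory factors. In macrophages this programme switches on secreted and surface defence proteins and is also known to slow cell division and to redirect lipid and central carbon metabolism. The genes that fell are described here by function.

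Levels are log2 signals from Affymetrix whole-transcript arrays, so a difference of 1 is a 2-fold change, and each group has n = 4 arrays. A gene is called higher or lower where the limma test over all 18820 genes gave a Benjamini-Hochberg adjusted p under 0.05. The 31 measured markers of lymphoid, epithelial, endothelial and fibroblast cells, which a macrophage line should lack, had a median level of 3.62 over all 16 arrays, and a mean below it is treated as not above background. Of 20 macrophage markers all lay above that level in both groups, among them Cd68 (12.6 in controls), a lysosomal protein of macrophages, and Lyz2 (12.2), lysozyme. Since these markers set that level, their own counts under it are no test of absence. Over the 14 T, B and NK cell markers the list's median level per array ran from 3.36 to 3.48 in control arrays and from 3.18 to 3.45 in LPS arrays. Over all 16 arrays, 70.6% of the variance lay along a first principal component that separated the arrays with LPS from those without. Fewer cells of a kind and less RNA per cell cannot be told apart in these bulk samples, and cell number was not measured.

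LPS changed 5346 genes, 28.4% of those tested, 2376 (12.6%) higher and 2970 (15.8%) lower. The balance of directions depended on the scaling: centring each array on the median of all 35556 probe sets, an alternative chosen after seeing the data, gave 3043 higher and 2468 lower. That centring moved the median gene by 0.05, so it touches small changes. Changes of at least 2-fold were found for 363 genes higher (1.93%) and 268 lower (1.42%). Only 63 of the 363 and 2 of the 268 belonged to the lists of cytokines, chemokines and interferon-stimulated genes. Of all genes, 120 rose at least 4-fold and 16 fell at least 4-fold, and most calls were small, with 67.1% of the higher and 71.7% of the lower under 1.5-fold. In the plot of change against control level the decreases lie mostly among genes of middle and high signal. A gene with little signal in controls cannot show a decrease.

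**Figure D1:**
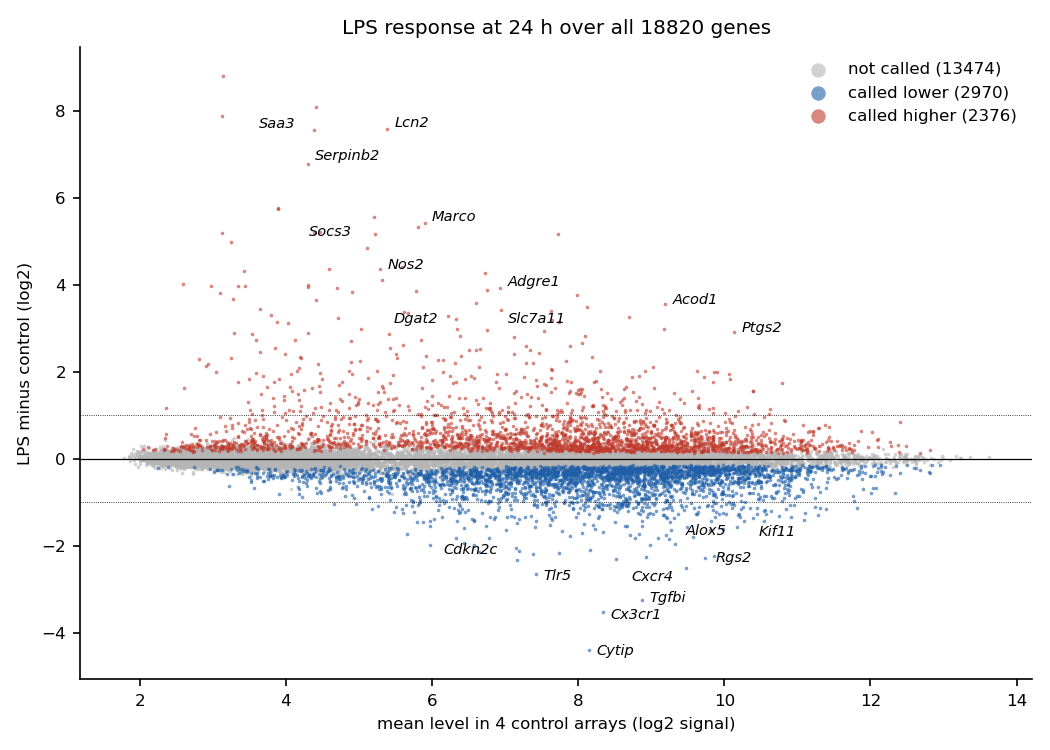
Change with LPS (log2, LPS mean minus control mean) against the mean level of the 4 control arrays (log2 signal) for each of the 18820 genes, with 2376 called higher in red, 2970 called lower in blue and the rest in grey. Dotted lines mark 2-fold changes, and the increases reach further from 0 than the decreases, of which Cytip (−4.40) is the largest. Names mark some of the genes described in the text, with Lcn2 (7.58) the highest of those named.

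The 25 largest decreases were led by genes of cell adhesion, migration and sensing. Cytip encodes a partner of cytohesin-1 that holds back integrin-mediated adhesion. Cytip read 8.32, 8.11, 7.96 and 8.22 in the control arrays and 3.59, 3.50, 4.08 and 3.84 in the LPS arrays. The groups were far apart, and the LPS mean lay only just above background, 21.1-fold below control (SE 0.14 on the log2 scale, limma adjusted p = 1.3e-13). Cx3cr1, the receptor for fractalkine, read 8.24, 8.16, 8.27 and 8.67 in controls and 4.71, 4.75, 4.57 and 5.21 with LPS, 11.5-fold lower. Tgfbi, a matrix protein induced by TGF-beta, varied more between arrays, with 9.20, 8.61, 9.53 and 8.16 in controls and 5.36, 5.36, 6.45 and 5.39 with LPS, 9.42-fold lower (SE 0.29). The lowest control array for Tgfbi lay above the highest LPS array, which the choice of the 25 genes required.

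Several of these genes encode receptors. Tlr5, the receptor for bacterial flagellin, read 7.47, 7.25, 7.69 and 7.31 in controls and 4.63, 4.71, 4.72 and 5.12 with LPS, 6.22-fold lower. Cxcr4, the receptor for CXCL12, read 9.39, 9.63, 9.37 and 9.52 in controls and 6.67, 7.48, 6.61 and 7.13 with LPS, 5.66-fold lower. Cxcr3, the receptor for interferon-induced chemokines, fell 4.50-fold. Neither chemokine receptor overlapped between the groups, which was a condition of their choice. Clec7a, which encodes the beta-glucan receptor Dectin-1, read 7.46, 6.88, 7.30 and 7.09 in controls and 5.15, 5.34, 4.98 and 4.83 with LPS, 4.31-fold lower. Cd300lg (4.77-fold), Plxdc1 (3.60-fold) and Lifr, the receptor for leukaemia inhibitory factor (3.91-fold), also fell.

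Signalling and regulatory genes formed a further set. Rgs2 and Rgs18 encode proteins that shut off G protein signals, and they fell 4.84-fold and 3.93-fold. Rasgrp3, an activator of Ras and Rap proteins, read 8.58, 8.53, 8.58 and 8.41 in controls and 6.19, 6.24, 6.27 and 6.18 with LPS, 4.94-fold lower with an SE of 0.06. Map2k6, a kinase that activates p38, fell 3.80-fold. Bcl6, a transcriptional repressor, lay between 8.73 and 8.86 in controls and between 6.74 and 7.11 with LPS, 3.55-fold lower, and the nuclear receptor gene Nr2f1 fell 3.53-fold. Cdkn2c, which encodes the inhibitor p18 of the cyclin D kinases, read 7.20, 7.16, 7.15 and 7.10 in controls and 5.21, 5.03, 5.23 and 4.97 with LPS, 4.13-fold lower. Enzymes and transporters completed the set: Gda, guanine deaminase (5.03-fold), St8sia4, a polysialic acid synthase (4.68-fold), Slc14a1, a urea transporter (4.59-fold), Abcd2, a fatty acid transporter of peroxisomes (4.39-fold), Zdhhc14, a protein palmitoyltransferase (3.52-fold), and Alox5, described with the lipid genes. Ankrd37 and Depp1 fell 4.29-fold and 3.93-fold. All 25 had means above the background level in both groups. That level is a median over markers, so a mean near it may hold little signal. Folds of genes with low LPS means, such as Cytip (3.75) and Lifr (4.01), may therefore be lower bounds.

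**Figure D2:**
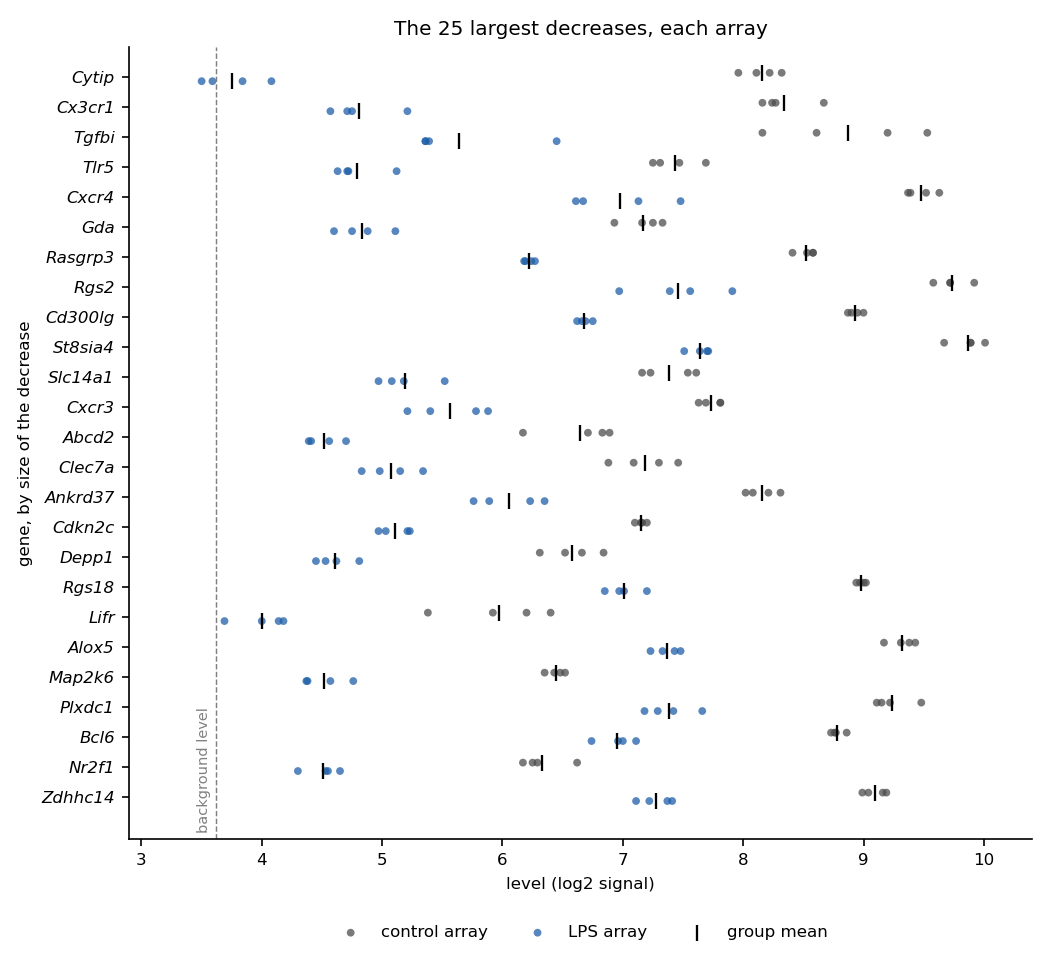
Level (log2 signal) of the 25 genes with the largest decreases in each of the 4 control arrays (grey) and 4 LPS arrays (blue), with group means as vertical bars and the background level dashed. The groups do not overlap for any of the 25, which was part of how they were chosen, and Cytip in LPS arrays comes closest to background.

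Nearly all measured genes of the machinery that copies and divides chromosomes fell. Over 5 lists (mitosis and spindle, replication origins, replication fork, condensin and cohesin, homologous recombination) 119 of 129 measured genes fell and 0 rose, against 15.8% lower among all genes tested. Genes of high signal are called more often: among the 9410 genes brighter than the median gene 20.9% were higher and 28.6% lower. List counts near these shares, here and below, are not particular to a list. The median change of the 129 genes was −0.82 (1.77-fold lower), against 0.00 for all genes. They contributed 37 of the 268 genes that fell at least 2-fold (13.8%). For 118 of the 119 the control and LPS arrays did not overlap, as for 29.8% of all genes and for 4861 of the 5346 called genes.

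Mitotic genes had the lowest median of the 5 lists (−1.01), with 37 of 38 lower and 21 at least 2-fold lower. The largest decreases were of kinesin motors of the spindle. Kif15 read 9.36, 9.15, 9.32 and 9.22 in controls and 7.83, 7.74, 7.86 and 7.82 with LPS, 2.74-fold lower (limma adjusted p = 1.21e-08). Kif11, the motor that pushes spindle poles apart, read 10.31, 10.19, 10.31 and 10.28 in controls and 9.02, 8.58, 8.95 and 8.84 with LPS, 2.68-fold lower. No LPS array reached a control array for either motor. The cytokinesis genes Prc1 (−1.26), Ect2 (−1.18) and Anln (−1.16), the kinetochore genes Nuf2 (−1.27) and Ndc80 (−1.07) and the kinase genes Aurkb (−1.19), Bub1 (−0.98) and Plk1 (−0.90) fell together with the cyclins Ccnb2 (−1.16) and Ccna2 (−1.10). Cdk1, the kinase these cyclins activate, read 9.09, 8.74, 9.01 and 8.94 in controls and 8.37, 7.93, 8.32 and 8.26 with LPS, a smaller decrease of 1.66-fold. Bub3 was the member not called (−0.17, limma adjusted p = 0.055), but it was called under other settings, such as a further quantile normalization (−0.20, 0.0244) or without LPS array 1 (−0.21, 0.0192).

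Many promoters of the mitotic genes share short runs of letters. Genes expressed late in the cell cycle are known to carry a cell cycle homology region (CHR, TTTGAA) and CCAAT boxes near their start. The list holds such genes, so a high share of these letters could be found whatever LPS did. RefSeq promoters (GRCm38.p6, 250 bases before to 50 after the start) were given for 32 of the 38 mitotic genes, 35 promoters in all, and were searched on both strands. The CHR letters were in 28 of the 35, against 14.8% of the 18155 promoters of all measured genes held in the reference. The letters CCAAT were in 27 of the 35, against 37.5% of all promoters, and both together in 24 of the 35, against 5.88%. The CHR and CCAAT letters can share at most 1 end base. The 250 bases before the start of Kif11 (chr19:37376132-37376381, plus strand) and of Ect2 (chr3:27153855-27154104, minus strand) are shown. Of the called mitotic genes considered whose upstream bases held both motifs, they fell most. For this choice a single promoter was taken per gene and a chromosome was set aside. Capitals mark each match to TTTGAA or CCAAT, or to their reverse complements.
Kif11: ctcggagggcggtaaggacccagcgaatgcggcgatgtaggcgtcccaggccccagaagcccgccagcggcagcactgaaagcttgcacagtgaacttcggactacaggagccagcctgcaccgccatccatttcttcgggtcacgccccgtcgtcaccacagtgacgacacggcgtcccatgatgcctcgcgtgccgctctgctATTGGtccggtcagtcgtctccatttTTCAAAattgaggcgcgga
Ect2: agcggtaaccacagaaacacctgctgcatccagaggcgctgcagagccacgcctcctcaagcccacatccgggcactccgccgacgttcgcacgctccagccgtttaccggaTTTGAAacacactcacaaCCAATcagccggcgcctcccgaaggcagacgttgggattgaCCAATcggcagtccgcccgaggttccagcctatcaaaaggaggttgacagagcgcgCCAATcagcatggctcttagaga
In Kif11 the matches start 45 and 19 bases before the transcription start, the CCAAT box first. A match describes the letters and is not evidence of a factor bound there.

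Replication genes fell too. Of 23 genes of replication origins and helicase loading 19 fell and 0 rose (median −0.74). Mcm2, a subunit of the helicase that unwinds DNA, read 11.03, 10.91, 11.03 and 10.91 in controls and 10.26, 9.86, 10.18 and 10.02 with LPS, 1.85-fold lower. The other helicase genes Mcm3 to Mcm7 fell by 0.66 to 0.96. Gmnn, which encodes geminin, the brake on relicensing of origins, fell most in the list (−1.24), and the loader Cdc6 fell 2.00-fold. The 4 members not called were all subunits of the origin recognition complex: Orc1 (−0.20), Orc2 (0.00), Orc3 (−0.03) and Orc5 (0.05), with limma adjusted p-values from 0.181 to 0.988. Orc6 fell by 0.43.

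At the replication fork 27 of 28 genes fell and 0 rose (median −0.72). Top2a, which untangles DNA, read 10.94, 10.77, 10.98 and 10.91 in controls and 9.92, 9.62, 9.98 and 9.89 with LPS, 2.07-fold lower. Lig1, the ligase of lagging strands (−1.02), Fen1, a flap nuclease (−0.90), and the polymerase subunit genes Pole2 (−1.04) and Pola1 (−0.73) fell. Pcna, the sliding clamp, read 11.95, 11.85, 11.94 and 11.86 in controls and 11.29, 11.18, 11.19 and 11.21 with LPS, 1.61-fold lower. Dnmt1 (−0.82) and Uhrf1 (−0.93), which copy DNA methylation behind the fork, fell with them. Pold2 was not called (−0.21, limma adjusted p = 0.0609), but it was under other settings, such as with the 8 arrays alone (−0.21, 0.0482) or without LPS array 1 (−0.25, 0.0377).

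The E2F motif TTTGGCGC or TTTCCCGC, searched on both strands, was in 9 of 22 promoters of 19 origin genes and in 6 of 31 promoters of 24 fork genes. It was in 2.25% of all 18155 promoters. TTTGGCGC can overlap its own reverse complement, and each promoter was counted once. Cdc6 is shown as the replication gene with the largest decrease whose 250 upstream bases held the motif (chr11:98907901-98908150, plus strand), under the same limits of choice as for the mitotic genes. Capitals mark the match, which lies on the opposite strand and starts 138 bases before the transcription start.
Cdc6: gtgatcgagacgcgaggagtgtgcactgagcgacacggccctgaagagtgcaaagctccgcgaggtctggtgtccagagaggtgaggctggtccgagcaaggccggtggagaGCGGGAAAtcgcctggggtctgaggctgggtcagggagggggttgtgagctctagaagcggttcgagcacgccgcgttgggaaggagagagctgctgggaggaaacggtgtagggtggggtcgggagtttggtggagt

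Chromosome structure and repair genes followed. Of 19 condensin and cohesin genes 17 fell and 0 rose (median −0.66). Esco2, which acetylates cohesin in S phase, read 7.60, 7.24, 7.55 and 7.27 in controls and 6.12, 5.92, 5.61 and 5.78 with LPS, 2.94-fold lower, and the condensin subunit gene Ncaph fell 2.46-fold. The cohesin regulators Nipbl (−0.11) and Wapl (−0.02) were not called. Of 21 genes of homologous recombination and the Fanconi pathway 19 fell and 0 rose (median −0.75), among them Brca1 (−1.11), its partner Bard1 (−1.14), the nuclease Exo1 (−1.10) and Fancd2 (−0.93). Brca1 read 8.38, 8.14, 8.39 and 8.23 in controls and 7.37, 7.07, 7.23 and 7.02 with LPS, with no overlap. In the list of other repair genes 11 of 22 fell, with a weaker median of −0.22. Neil3, a glycosylase that repairs oxidised bases and crosslinks, stood out with 8.58, 8.23, 8.26 and 8.30 in controls and 6.91, 6.64, 6.53 and 6.59 with LPS, 3.20-fold lower. The 3 repair genes called higher (Neil1, Lig3 and Xrcc4) changed by at most 0.32, and the number called was 1 without control array 2 or 3 or LPS array 1, and 0 without control array 4 or LPS array 2.

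G1/S regulators moved in both directions. Of 30 genes 22 fell and 4 rose (median −0.41). Ccnd1, the cyclin D1 gene, read 11.27, 10.88, 11.30 and 10.99 in controls and 10.09, 9.60, 10.01 and 9.80 with LPS, 2.35-fold lower. Ccnd2, the cyclin D2 gene, went the other way, with 5.03, 5.16, 5.42 and 5.38 in controls and 5.90, 6.09, 6.53 and 5.94 with LPS, 1.83-fold higher. Neither cyclin overlapped between the groups. The repressors E2f8 (−1.62) and E2f7 (−1.27), the activators E2f2 (−1.05) and E2f1 (−0.56) and the pocket protein genes Rbl1 (−0.98), Rb1 (−0.73) and Rbl2 (−0.71) fell. Of 5 Cdk inhibitor genes 4 were called lower, Cdkn2c, Cdkn2d (−0.55), Cdkn1b (−0.41) and Cdkn1c (−0.32), of which Cdkn1c lost its call in 6 of 8 leave-outs of 1 array (those of control arrays 1, 2 and 3 and of LPS arrays 1, 2 and 4). Cdkn1a, which encodes the inhibitor p21, was not called (0.12, limma adjusted p = 0.299). The antiproliferative genes Btg1 (1.17) and Btg2 (0.30) and the oncogene Myc (0.51) rose.

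Precursors of DNA are made by a further set. Of 24 genes of purine and pyrimidine synthesis 10 fell and 2 rose. The decreases were largest for deoxynucleotide enzymes: Tk1, thymidine kinase (−1.11), the ribonucleotide reductase subunits Rrm2 (−0.86) and Rrm1 (−0.70), Dck (−0.67) and Dut (−0.64). Impdh1, which opens guanine nucleotide synthesis (0.82), and Rrm2b, the p53-induced reductase subunit (0.39), rose. Upp1, uridine phosphorylase, from the list of nucleoside breakdown, read 5.12, 5.55, 5.20 and 5.40 in controls and 9.39, 9.33, 9.67 and 9.32 with LPS, 17.3-fold higher.

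Among 40 chromatin modifiers 21 fell and 5 rose (median −0.21). Dnmt3a, the enzyme of new DNA methylation, read 10.34, 10.38, 10.23 and 10.44 in controls and 9.19, 9.12, 9.21 and 9.37 with LPS, 2.18-fold lower. Cbx5, which encodes the heterochromatin protein HP1 alpha (−1.01), Hdac5 (−0.93) and Ezh2, the methyltransferase of polycomb complexes (−0.79), fell. The increases included the demethylase genes Kdm6b (1.45), Kdm5b (1.29) and Kdm4a (0.81) and the methylcytosine oxidase gene Tet2 (0.76). Kdm6b, which removes the mark that Ezh2 writes, read 6.26, 6.30, 6.21 and 6.16 in controls and 7.70, 7.78, 7.51 and 7.72 with LPS, 2.73-fold higher.

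**Figure D3:**
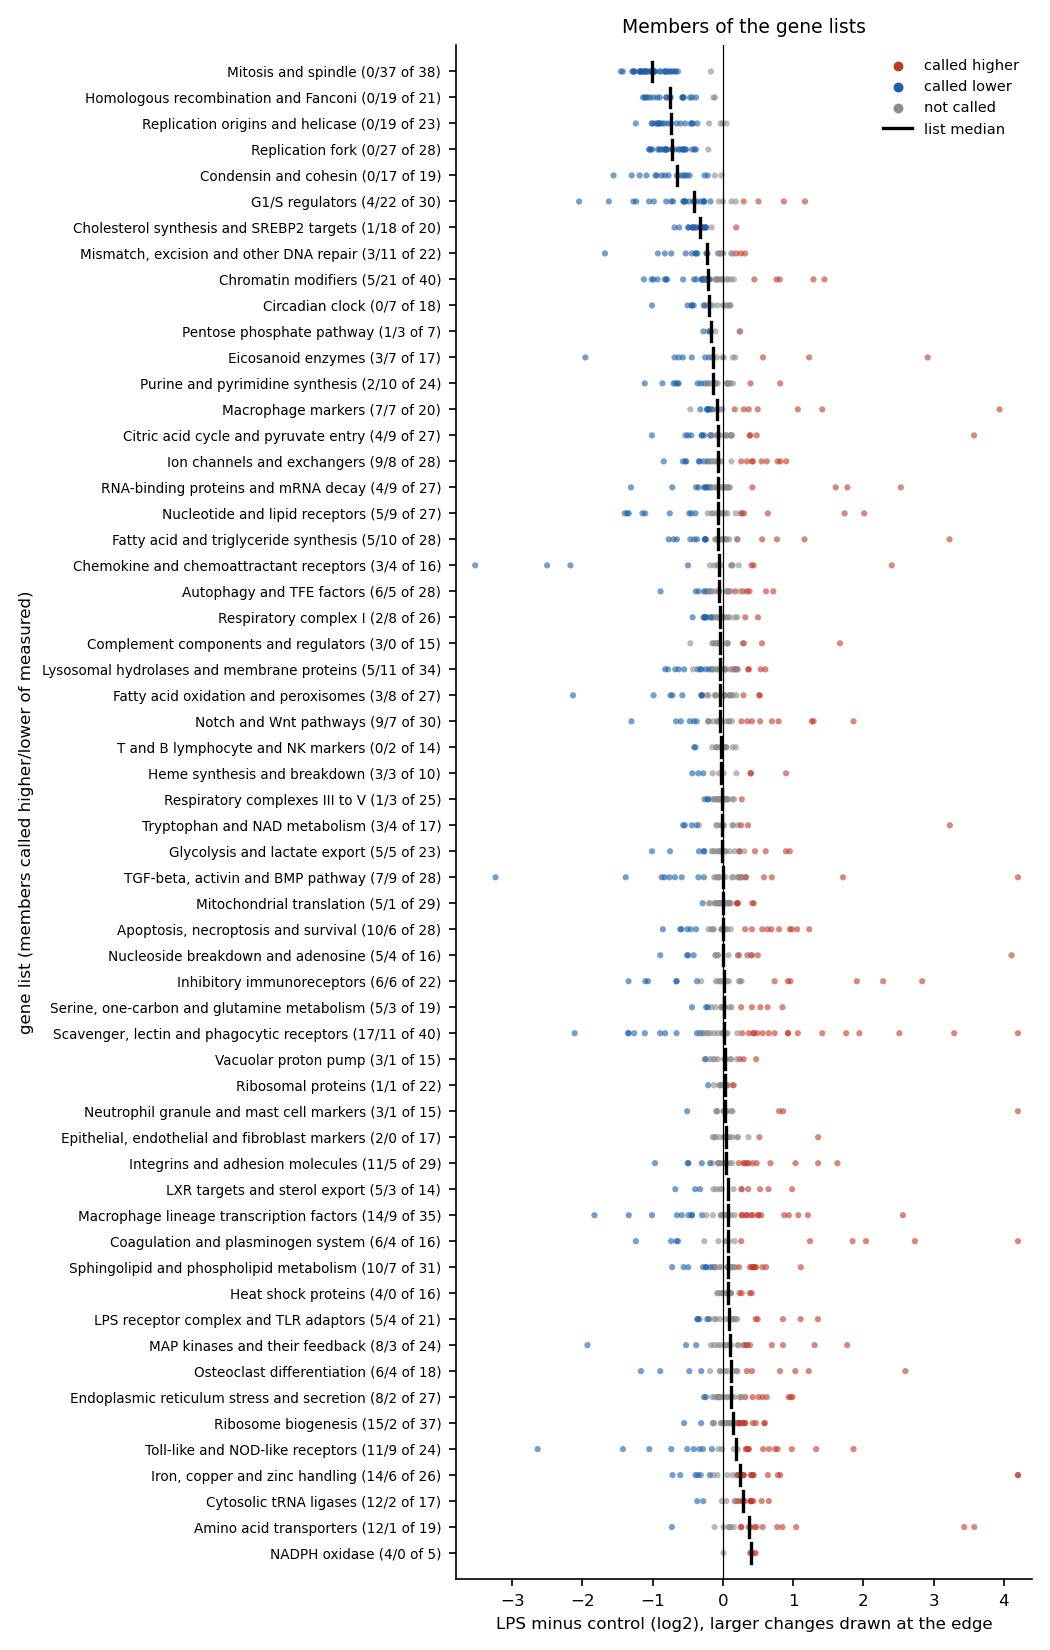
Change with LPS (log2) of each measured member of 58 gene lists, ordered by the list's median (black bar), with members called higher in red, lower in blue and not called in grey. Numbers beside each name give members called higher and lower of those measured, and changes beyond the axis are drawn at its edge. The 5 lists of chromosome duplication and division lie lowest, with 0 members higher in each, and amino acid transporters and tRNA ligases lie near the other end.

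Pattern recognition receptors moved in both directions. Of 24 Toll-like and NOD-like receptor and inflammasome genes 11 rose and 9 fell. Among receptors for nucleic acids Tlr13, which senses bacterial ribosomal RNA, read 10.63, 10.63, 10.42 and 10.49 in controls and 8.98, 9.32, 9.02 and 9.16 with LPS, 2.68-fold lower, and Tlr8 (−1.05), Tlr7 (−0.73) and Tlr9 (−0.51), which sense RNA or DNA in endosomes, fell as well. Tlr3, which senses double-stranded RNA, was not called (0.16). Among receptors for bacterial lipoproteins Tlr1 read 6.52, 6.56, 6.85 and 6.35 in controls and 8.44, 8.35, 8.65 and 8.28 with LPS, 3.63-fold higher, and Tlr2 (0.98) and Tlr6 (0.66) rose with it. The inflammasome sensor Nlrp3 rose 2.51-fold and the muramyl peptide sensor Nod2 1.49-fold.

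The genes of the LPS receptor itself changed by at most 0.50. Cd14 rose (0.50). Ly96 was called higher (0.47), but not without control array 4 (0.38, limma adjusted p = 0.0591) or LPS array 2 (0.41, 0.0522). Downstream, the adaptor gene Ticam2 (1.35) and the kinase gene Irak2 (1.11) rose. Myd88 was not called (0.08). Tlr4 read 8.42, 8.56, 8.54 and 8.72 in controls and 8.14, 8.36, 8.12 and 8.27 with LPS, a difference of −0.33 (limma adjusted p = 0.0253). The Tlr4 groups did not overlap, but the gene was not called when control array 4 was left out (−0.28, limma adjusted p = 0.0849), nor without LPS array 1 (−0.31, 0.068) or LPS array 3 (−0.30, 0.0734), and with centring on all probe sets (adjusted p = 0.0596).

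Receptors for nucleotides and lipids outside the cell moved in both directions. Of 27 nucleotide and lipid receptors 9 fell and 5 rose, and 5 were not above background in either group. The counts called lie near the shares among bright genes (20.9% higher and 28.6% lower). P2ry1, an ADP receptor, read 6.62, 6.51, 6.53 and 6.64 in controls and 5.29, 5.03, 5.04 and 5.35 with LPS, 2.63-fold lower. Gpr183, the oxysterol receptor (−1.36), Lpar6, a lysophosphatidic acid receptor (−1.34), the cannabinoid receptor gene Cnr2 (−1.14), S1pr1, a sphingosine-1-phosphate receptor (−1.11), and P2ry13 (−0.76) also fell. Ptger2, a prostaglandin E2 receptor, rose from 4.09, 3.93, 4.17 and 4.42 to 6.18, 6.36, 6.11 and 6.01, 4.03-fold, and Hcar2, the niacin receptor, rose 3.32-fold. Among 16 chemoattractant receptors 4 fell, Cx3cr1, Cxcr4, Cxcr3 and C5ar2 (−0.50), and 3 rose, again near the shares among bright genes. Ccrl2, a chemerin-binding receptor, rose 5.29-fold and Ccr2 1.33-fold, while Ccr1, the other gene called, was not above background in either group.

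Phagocytic and lectin receptors did so as well. Of 40 genes 17 rose and 11 fell, and 5 were not above background in either group. Trem2, a lipid-sensing receptor, read 10.80, 10.97, 10.88 and 11.02 in controls and 9.48, 9.66, 9.56 and 9.59 with LPS, 2.54-fold lower, and Lrp1, an endocytic receptor, fell 2.40-fold. The scavenger receptor Marco rose 42.7-fold, the Dectin-2 gene Clec4n from 5.76, 6.08, 6.43 and 6.60 to 9.43, 9.47, 9.87 and 9.27 (9.80-fold), the sialic acid receptor Siglec1 5.70-fold and Trem1, an amplifier of inflammation, 3.84-fold. Dectin-1 (Clec7a, lower) and Dectin-2 (Clec4n, higher) both bind fungal walls. Of 22 inhibitory receptors 6 rose and 6 fell, counts near the shares among bright genes (20.9% higher and 28.6% lower). Cd274, which encodes PD-L1, rose 7.15-fold and Siglece 4.86-fold. Cd300a (−1.34), Havcr2, which encodes TIM-3 (−1.10), and Lair1 (−1.07) fell.

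**Figure D4:**
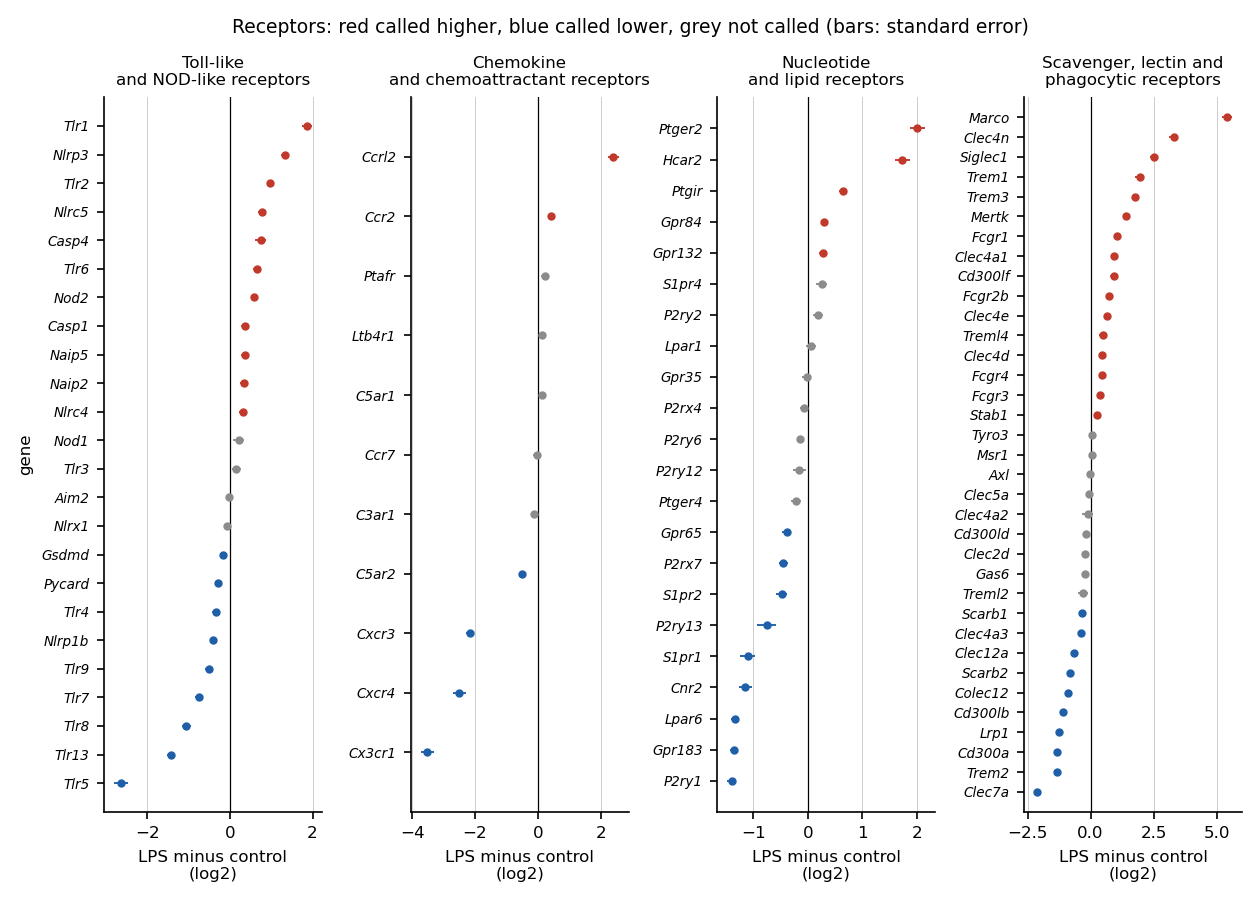
Change with LPS (log2, LPS minus control, bars give the SE) for the members of 4 receptor lists that were above background in at least 1 group, in red where called higher, blue where called lower and grey where not called. Tlr5, Tlr13, Tlr8, Tlr7 and Tlr9 lie at the low end and Tlr1 (1.86) at the high end of the first panel.

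Identity genes changed without a common direction. Of 20 macrophage markers 7 rose and 7 fell. Adgre1, which encodes the surface marker F4/80, read 6.75, 6.86, 7.38 and 6.73 in controls and 10.80, 10.78, 11.12 and 10.78 with LPS, 15.3-fold higher, and Mertk, a receptor for dying cells, rose 2.67-fold. The markers that fell did so by at most 0.32, with Csf1r, the receptor for macrophage growth factor, at −0.20. The number of markers lower was 4 without control array 3, LPS array 1 or LPS array 4, and 4 with centring on all probe sets. Of 35 lineage transcription factors 14 rose and 9 fell. Mef2c, which read 10.36, 9.96, 10.27 and 10.27 in controls and 9.06, 8.68, 8.82 and 8.94 with LPS (2.53-fold lower), fell beside Bcl6 and Bhlhe41 (−1.01). Egr1, an immediate early gene (2.56), Cebpb (1.21) and Id3 (1.07) rose, and Spi1, which encodes the master regulator PU.1, was not called (−0.01).

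Markers of other cells included a few that rose. Of 15 neutrophil and mast cell markers 3 rose and 1 fell, and 6 were not above background in either group. The list's median level per array ran from 3.63 to 3.70 in controls and from 3.62 to 3.75 with LPS. Lcn2, S100a8 (0.80) and Kit (0.86) were the members higher, with Lcn2 at 12.91 to 13.04 with LPS, while the granule genes Elane, Ngp and Retnlg were not above background. Of 17 epithelial, endothelial and fibroblast markers 2 rose, Pecam1 (1.36), which leukocytes also express, and Dcn, which was not above background in either group. Here the median level per array ran from 4.02 to 4.21 in controls and from 4.25 to 4.43 with LPS, without overlap. The part of other cells in the results above was not tested.

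Most genes of cholesterol synthesis fell, by small amounts. Of 20 genes 18 fell and 1 rose, against 15.8% lower among all genes, with a median of −0.33 and 0 changed by 2-fold. Sqle, squalene epoxidase, read 10.97, 11.18, 10.89 and 11.13 in controls and 10.34, 10.34, 10.42 and 10.33 with LPS, 1.61-fold lower. Hmgcs1, which makes the precursor of mevalonate, read 10.31, 10.39, 10.20 and 10.37 in controls and 9.66, 9.66, 9.78 and 9.69 with LPS, 1.54-fold lower. No LPS array overlapped the controls for either enzyme. Insig1 (−0.49), which retains SREBP in the endoplasmic reticulum, and Srebf2 (−0.33), the gene of the factor that drives the pathway, fell as well. Sc5d was called higher (0.19), but not when control array 2 or 3 or LPS array 2, 3 or 4 was left out (0.16 to 0.19, limma adjusted p from 0.0559 to 0.101), nor after a further quantile normalization (0.17, 0.0541).

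A sterol element was sought in their promoters, as TCACCCCAC or TCACCCCAT on both strands. It was in 2 of 19 promoters of 16 of these genes, against 0.755% of all promoters, and the 2 spellings differ in their last letter only. The 250 upstream bases of Hmgcs1 (chr13:119690101-119690350, plus strand) are shown as those of the gene with the largest decrease that held it, under the same limits of choice as for the mitotic genes. The match, in capitals, starts 137 bases before the transcription start.
Hmgcs1: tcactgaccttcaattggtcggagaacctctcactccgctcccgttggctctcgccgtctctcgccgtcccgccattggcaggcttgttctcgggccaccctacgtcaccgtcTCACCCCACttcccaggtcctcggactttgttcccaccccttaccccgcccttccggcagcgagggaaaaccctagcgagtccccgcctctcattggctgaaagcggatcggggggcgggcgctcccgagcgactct

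Genes of lipid mediators moved in both directions. In the lipoxygenase branch Alox5, the enzyme that opens leukotriene synthesis, read 9.17, 9.38, 9.43 and 9.31 in controls and 7.33, 7.48, 7.23 and 7.43 with LPS, 3.88-fold lower (limma adjusted p = 6.08e-13), and Alox15 (−0.69), Ltc4s (−0.57) and Alox5ap (−0.25) fell with it. In the cyclooxygenase branch Ptgs2, which encodes cyclooxygenase-2, read 9.98, 10.22, 9.87 and 10.46 in controls and 12.98, 13.02, 13.06 and 13.14 with LPS, 7.54-fold higher, and the prostaglandin E synthase genes Ptges (1.23) and Ptges2 (0.57) rose. Of 17 eicosanoid genes 3 rose and 7 fell in all.

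Genes of fatty acid and triglyceride synthesis also moved both ways. Of 28 genes 10 fell and 5 rose. Lpl, lipoprotein lipase (−0.77), Lpin1 (−0.70), Acss2 (−0.65) and Fasn, fatty acid synthase (−0.46), fell. Dgat2, which makes triglyceride, read 6.24, 6.49, 6.36 and 6.21 in controls and 9.56, 9.48, 9.67 and 9.49 with LPS, 9.36-fold higher, and Hilpda, an inhibitor of fat breakdown on lipid droplets, rose 2.24-fold. Of 27 genes of fatty acid oxidation and peroxisomes 8 fell and 3 rose, a share lower close to the 28.6% among bright genes, with Acaa2 (−0.99), Cpt1a, the gate of fatty acids into mitochondria (−0.75), and Hadh (−0.72) lower beside Abcd2.

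Central carbon metabolism held 1 large change. Acod1, which makes itaconate from a citric acid cycle intermediate, read 8.79, 9.39, 8.79 and 9.80 in controls and 12.77, 12.76, 12.76 and 12.78 with LPS, 11.9-fold higher. The LPS arrays agreed within 0.02 while the controls spread over 1.01. Of the 27 genes of the cycle and pyruvate entry 9 fell and 4 rose, near the shares among bright genes (28.6% lower and 20.9% higher). Pdk1, a brake on pyruvate oxidation (−1.01), Idh1 (−0.53), Idh2 (−0.49) and Mdh1 (−0.45) were lower. Centring on all probe sets gave 7 higher and 7 lower. Of 26 complex I genes 8 fell and 2 rose, none by more than 0.50, and again the share lower was close to the 28.6% among bright genes. Of 23 glycolysis genes 5 rose, among them Hk2 (0.95) and Pfkfb3 (0.90), and 5 fell, among them Pfkm (−0.75). Gapdh, Pgk1, Aldoa and Ldha were not called (−0.08 to 0.04). The glycolysis counts also lie near the shares among bright genes. The number lower was 3 without control array 2, LPS array 1 or LPS array 2, and 2 without control array 4. Centring on all probe sets gave 7 higher and 3 lower.

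Of 19 amino acid transporters 12 rose, 1 fell and 6 were not called (median 0.37), against 12.6% higher among all genes and 20.9% among bright genes. Slc7a2, a carrier of arginine, read 6.48, 6.58, 6.69 and 6.65 in controls and 9.93, 10.35, 10.24 and 10.19 with LPS, 11.9-fold higher. Slc7a11, the cystine carrier, rose 10.8-fold, with more spread in controls (6.85, 7.29, 6.12 and 7.50) than with LPS (10.16, 10.49, 10.57 and 10.27). Slc1a4 (1.04), Slc6a9, a glycine carrier (0.85), and the leucine carrier pair Slc7a5 (0.57) and Slc3a2 (0.40) rose, and Slc43a2 fell by 0.72. Of 17 cytosolic tRNA ligase genes 12 rose, led by Wars (0.65) and Rars (0.55), and 2 fell, with a median of 0.29. The number lower was 1 without control array 4 or LPS array 2. In the list of serine, one-carbon and glutamine metabolism 5 of 19 genes rose, 3 fell and 11 were not called (median 0.02). Asparagine synthetase, Asns (0.64), and the transaminase gene Gpt2 (0.85) were among those higher. In the list of tryptophan and NAD metabolism 3 of 17 genes rose, 4 fell and 10 were not called (median −0.01). Kynu, which breaks down kynurenine, rose 9.39-fold. Of 37 ribosome biogenesis genes 15 rose and 2 fell, with Polr1b, a subunit of RNA polymerase I, the largest at 0.60. Of 22 ribosomal protein genes 20 were not called. The others, Rps20 (0.14) and Rpl30 (−0.21), both lost the call without control array 1, 2, 3 or 4 or without LPS array 1 or 3, Rps20 also without LPS array 2 and Rpl30 also without LPS array 4.

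**Figure D5:**
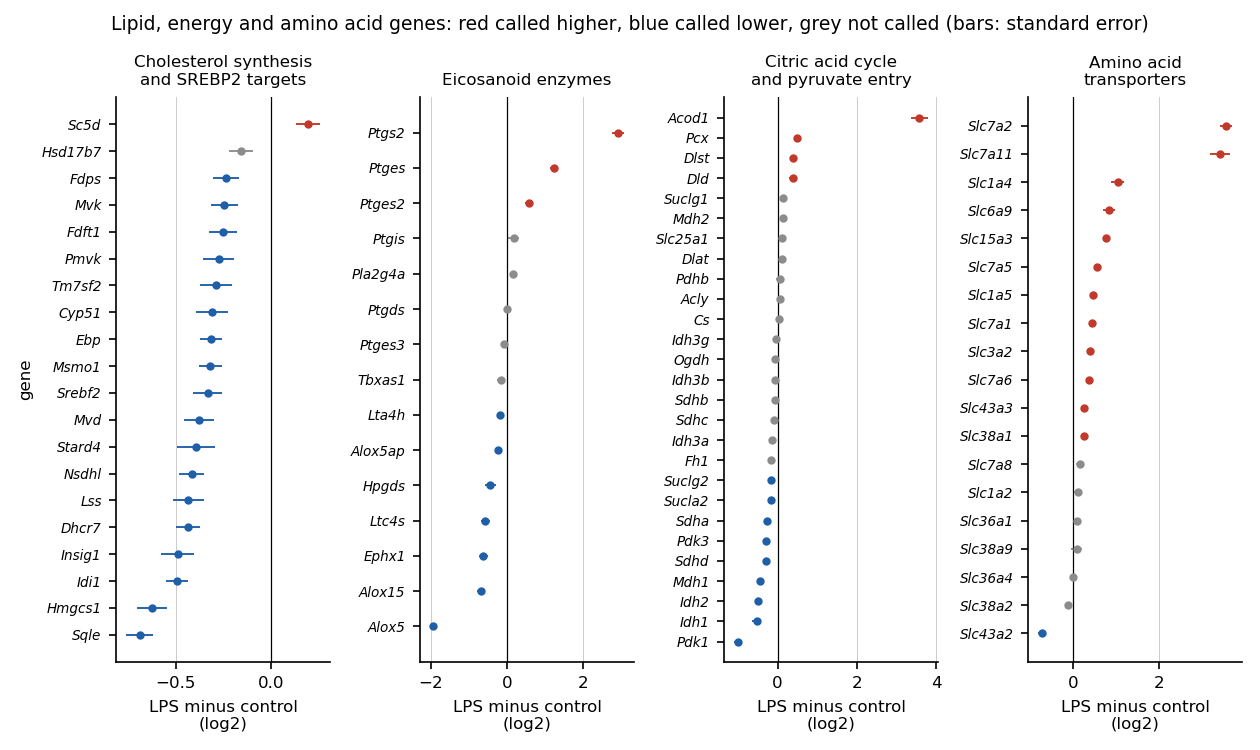
Change with LPS (log2, LPS minus control, bars give the SE) for genes of cholesterol synthesis, eicosanoid enzymes, the citric acid cycle and amino acid transport that were above background in at least 1 group, in red where called higher, blue where called lower and grey where not called. Horizontal scales differ between panels: the cholesterol genes run from −0.69 to 0.19, while Slc7a2 rose by 3.58 and Acod1 by 3.57.

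Adhesion genes moved in both directions. Of 29 integrins and adhesion molecules 11 rose, with Itgal, the alpha chain of LFA-1 (1.63), and Itga5, the fibronectin receptor chain (1.03), and 5 fell, with Itga6, a laminin receptor chain (−0.97).

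Extracellular proteolysis and iron genes changed strongly at a few members. Serpinb2, an inhibitor of urokinase, rose 110-fold while urokinase itself, Plau, fell from 9.07, 9.03, 9.01 and 8.83 to 7.58, 8.08, 7.79 and 7.54, 2.36-fold. Its receptor Plaur rose 2.36-fold. Procr, the protein C receptor (2.04), and Thbs1, thrombospondin-1 (2.73), rose, and F3, tissue factor, rose at least 3.29-fold from a control mean below background. Of 26 genes of iron, copper and zinc handling 14 rose and 6 fell: the iron importers Tfrc (0.78) and Slc11a2 (0.82) rose, and Slc40a1, the iron exporter ferroportin (−0.72), and Ncoa4, the ferritin recycling receptor (−0.61), fell. Of 5 genes of the NADPH oxidase 4 rose, by 0.39 to 0.47. Of 34 lysosomal genes 11 fell, led by Scarb2 (−0.82), and 5 rose, led by Gaa (0.60). Both counts lie near the shares among bright genes (28.6% lower and 20.9% higher). Centring on all probe sets gave 9 lower and 9 higher. The lysosome regulator Tfeb fell by 0.89.

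Signalling pathways lost and gained members. Among bright genes 20.9% were higher and 28.6% lower, and the counts of the TGF-beta and of the Notch and Wnt lists lie near those shares. In the TGF-beta and activin list 9 of 28 fell and 7 rose: the ligand Tgfb3 (−1.38), the receptor Tgfbr1 (−0.59) and the transducers Smad3 (−0.83) and Smad1 (−0.76) fell with Tgfbi, while Inhba, the activin subunit, rose 36.6-fold and the Smad repressor Skil (1.71) rose. Of 24 MAP kinase genes 8 rose and 3 fell, with the phosphatases Dusp5 (1.77) and Dusp2 (1.31) higher and p38 alpha, Mapk14 (−0.52), lower beside Map2k6. Of 30 Notch and Wnt genes 9 rose and 7 fell, with the coactivator Maml2 (1.86) and the ligand Jag1 (1.27) higher and the receptor Fzd7 (−1.30) lower. Of 28 apoptosis genes 10 rose, among them Traf1 (1.23) and the caspase-8 inhibitor Cflar (0.95), and 6 fell, among them Pmaip1 (−0.85), which encodes the pro-death protein NOXA.

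RNA decay proteins of the same family moved apart. Zfp36, which encodes tristetraprolin, read 8.00, 8.03, 8.03 and 8.03 in controls and 9.59, 9.59, 9.69 and 9.63 with LPS, 3.04-fold higher. Its paralog Zfp36l2 read 10.82, 10.69, 10.78 and 10.72 in controls and 9.39, 9.46, 9.53 and 9.38 with LPS, 2.48-fold lower, and Zfp36l1 fell by 0.72. The RNase genes Zc3h12a (2.53) and Zc3h12c (1.77) rose. Of 18 clock genes 7 fell and 0 rose, against 28.6% lower and 20.9% higher among bright genes, and 2 were not above background in either group. The clock decreases were led by the repressor Bhlhe41 (−1.01), which is also counted among the lineage factors, with Per3 (−0.44) and Cry2 (−0.42). Of 18 osteoclast genes 6 rose and 4 fell (median 0.11), against 20.9% higher and 28.6% lower among bright genes. Of the 18, 4 were not above background in either group. The protease gene Mmp9 (2.60), the transcription factor genes Jdp2 (1.22) and Fos (1.03) and the kinase gene Src (0.81) rose, and Dcstamp, needed for cell fusion (−1.17), and Nfatc1, the master regulator of osteoclasts (−0.89), fell.

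The 20 largest increases outside cytokines, chemokines and interferon-stimulated genes included secreted, surface and intracellular proteins. Lcn2, a protein that captures bacterial siderophores, read 4.80, 5.75, 5.25 and 5.76 in controls and 12.96, 13.04, 12.95 and 12.91 with LPS, 191-fold higher. Saa3, an acute phase protein, read 4.53, 4.57, 4.18 and 4.23 in controls and 11.88, 12.01, 11.97 and 11.89 with LPS, 188-fold higher. For both genes the LPS arrays agreed more closely than the controls. Those of Lcn2 lay near the top of the range of the arrays (13.68). Cp, ceruloplasmin, an iron-oxidising enzyme (37.2-fold), Socs3, a feedback inhibitor of cytokine signals (36.3-fold), Nr4a1, an orphan nuclear receptor (28.7-fold), Edn1, endothelin-1 (20.7-fold), Nos2, the inducible nitric oxide synthase (20.6-fold), and P3h2, a collagen prolyl hydroxylase (15.9-fold), rose from levels above background. The stefin genes Cstdc4 (47.2-fold) and Stfa3 (at least 24.4-fold) and the small proline-rich genes Sprr2d (at least 25.9-fold), Sprr2e (at least 17.3-fold) and Sprr2g (at least 10.0-fold) belong to families of near-identical copies, so their probes may share targets and their values are uncertain. Zfp811 (at least 8.07-fold) and Heatr9, which read 6.91, 7.53, 7.12 and 7.73 with LPS, also rose from control means below background. The NF-kB consensus was in 1 of 20 promoters of 16 of these genes on either strand, against 4.97% of all promoters, within the 250 bases before and 50 after the start.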

How the data were processed

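RNA of RAW264.7 cells was labelled from 100 ng of total RNA, of integrity number above 8 per the labels' protocols, and read on Affymetrix whole-transcript arrays. The deposited log2 values, 1 per probe set and array, were made by the authors with RMA per the submitters' processing notes; its version, the annotation and the genome build are not given in the sources used here. RMA equalises arrays, so changes are relative to the bulk of probes. Arrays have no read depth, and the 4 arrays per group limit the precision.

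Of 35556 probe sets, the brightest 1 of each gene was kept (18820 genes). The group means of all 16 arrays were fitted with limma 3.58.1 (R 4.3.3; lmFit, eBayes, 12 residual degrees of freedom, two-sided, Benjamini-Hochberg). The fit was tested on simulated data. One array with LPS and DHA5HT has a title and a treatment label that conflict, and the title was followed. That array entered only steps that used all 16 arrays, such as the spread, and not the means compared. Same-numbered control and LPS arrays deviated from their group means with correlations of 0.0995 to 0.131, against −0.112 to 0.0973 for arrays of different number. The main fit did not pair samples by number, and the closing section gives the counts with replicate number as a block.

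Members and gene lists (62, with 1518 of 1686 symbols measured) were chosen with earlier results of these data known. One list is not reported here. Named genes are members of the lists and the 25 largest decreases and 20 largest increases among called genes outside cytokines, chemokines and interferon-stimulated genes whose groups did not overlap and whose higher mean was above background, predicted genes and small RNAs excluded. A fold against a mean under background is given as at least the fold over 3.62. The closing section gives the effect of other normalizations, filters and models and of leaving out each array.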

Additional observations from a re-analysis of the deposited data

Results flagged for a closer look

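Of 530 groups of 4 arrays, a control and an LPS group for each gene reported, 24 held an array whose gap to the nearest other, divided by the range, passed Dixon's 95% critical value. Chance flags about 1 in 20 groups. On the LPS side array 3 was high for Tgfbi (6.45 against 5.36 to 5.39, ratio 0.973), Adgre1 (11.12 against 10.78 to 10.80, 0.961) and Sqle (10.42, 0.907). LPS array 1 was high for E2f7 (7.13 against 6.77 to 6.79, 0.944), Orc6 (0.917), Pmaip1 (0.866) and Ncaph (0.842) and low for Slc11a2 (0.945) and Impdh1 (0.91). LPS array 2 was low for Idh2 (0.951) and Fancd2 (0.916), and LPS array 4 high for Pdk1 (7.75 against 7.43 to 7.45, 0.927), Tlr3 (0.872), Wapl (0.868) and Ptges (0.853).

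On the control side array 3 was low for Slc1a4 (6.29 against 7.11 to 7.16, 0.938), the widest gap after that of Tgfbi. Control array 2 was high for S1pr1 (0.979) and Neil1 (0.949) and low for Stfa3 (0.957), Heatr9 (0.924) and Trem1 (6.44 against 7.15 to 7.28, 0.852). Control array 1 was low for Cd14 (0.945), Kit (0.851) and Hadh (0.844). The LPS differences reported for Tgfbi, Adgre1 and Slc1a4 kept their calls without the array concerned.

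Outside the genes tested, 14338 probe sets that name several genes or none were left out. Fitted in the same way with limma, 1092 of them (7.62%) were called, 74 of them at least 2-fold higher with LPS and 90 at least 2-fold lower.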

How the results depend on the processing

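Requiring evidence of more than a 1.2-fold change left 1956 genes called, 909 higher and 1047 lower, while 360 and 267 stayed called at 2-fold or more. Every other alternative run kept these counts within 1.5 times: adjusted p under 0.01 gave 3994 calls, genes brighter than the median gene 5262, the 8 arrays alone 5127, no conflicting array 5296, the mean of a gene's probe sets 5299, array weights 5518 and an intensity trend 5517. Leaving out 1 array gave 4844 to 5081 calls, 2137 to 2281 higher and 2672 to 2835 lower, with 359 to 383 higher and 255 to 276 lower at 2-fold or more. With the replicate block 5757 genes were called, 2580 higher and 3177 lower, and every array correlated best with the array of its own number, a hint from the data and not the design. The replicate block also called Bub3 (limma adjusted p = 0.0193) and Pold2 (0.0365), which 8 and 7 of the alternatives called. A further quantile normalization gave 2580 higher and 2742 lower, centring on the median gene 2213 and 3166, and centring on all probe sets 3043 and 2468. Of 445 called genes named or reported, 0 reversed, and 136 lost the call where more than a 1.2-fold change was required. Under at least 1 of the other alternatives 29 lost the call. Of these, 26 lost it when 1 array was left out, all with changes of 0.51 or less on the log2 scale. Changes of low genes are limited by background.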
